A study of Mus musculus with 4 samples.

Results

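The NR4A nuclear receptors and 7 further inducible genes, namely Nr4a1, Nr4a2, Nr4a3, Atf3, Csrnp1, Thbs1, Adamts1, Klf2, Klf4 and Apold1, were followed through spatial count tables of mouse lung. These 10 genes are 10 of the 32285 genes counted in each table. They were chosen from earlier results of the same 4 sections, including the comparison of vaped (V) with non-vaped (NV) lungs, so their differences between V and NV are given below as a description, with no test. All 10 were detected in all 4 sections.

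NR4A proteins are orphan nuclear receptors that bind DNA without a known physiological ligand, and their activity is set largely by how much of them is made. Their genes are immediate-early genes, transcribed within minutes of a signal such as cyclic AMP, calcium, mechanical stretch or inflammatory stimulation, and their mRNAs decay quickly. In the lung they are known mainly from macrophages, T cells and vessel walls, while Klf2 and Klf4 are best known as genes that laminar blood flow keeps high in endothelium.

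Lungs of C57BL/6J mice were sectioned at 10 µm and placed on Visium slides, whose barcoded spots take up mRNA from the overlying tissue, with molecules counted by unique molecular identifiers (UMIs). V mice inhaled vapor of Peach Ice 70VG/30PG juice from JUUL pens in whole-body chambers 4 h a day, 5 days a week, during 9 weeks, starting at about 8 weeks of age. NV mice were the unexposed controls. Each group held 1 male and 1 female mouse with 1 section per mouse, and the tissue was labelled as upper pulmonary branches.

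The sections held 473 to 2053 spots and 6957392 to 34308556 UMIs, with a median of 6259 to 11355 UMIs per spot. A spot was counted as parenchyma if 6 marker genes of alveolar tissue (Calcrl, Cldn18, Hopx, Sftpb, Sftpc, Tmem100) summed to 50% or more of their level over all spots, and as upper airway if not. The name upper airway thus stands for any spot low in these markers, of whatever tissue. Calcrl and Tmem100 are also genes of lung endothelium, so these spots were partly chosen for low endothelial content. Of the parenchyma spots, 684 lay in the section of the NV male, 348 of the NV female, 1564 of the V male and 1620 of the V female. Upper airway spots numbered 158, 125 and 433 in the male NV, female NV and female V sections. The V male section stood apart with 1 such spot, and its summed level of cardiac muscle markers was 18.2 CPM (UMIs scaled to an equal total) over the parenchyma, against 1768 to 2938 CPM in the other sections. Fibroblast markers were also lowest there (426 against 1320 to 1468 CPM) and neutrophil markers highest (606 against 117 to 275 CPM), so all results are given per section. Pairs of sections shared 277 to 1167 spot barcodes, which mark positions on the slide and not cells.

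The 3 receptors Nr4a1, Nr4a2 and Nr4a3 were each lower in both V sections than in both NV sections. Levels are CPM, that is UMIs scaled to an equal total for each section, or for its parenchyma spots where stated. Nr4a1 (chr15:101254269-101274795, plus strand, GRCm38), the receptor also called NUR77, had 231.5 and 87.1 CPM in the male and female NV mice, and 22.4 and 25.2 CPM in the male and female V mice. The NV sections differed from each other far more than the V sections did. In the parenchyma its NV mean was 169 ± 99.2 CPM and its V mean 27.0 ± 6.48 CPM (SD, n = 2 each). The NV level was 10.7 times the V level between the males and 3.13 times between the females.

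Nr4a2 (chr2:57106830-57124003, minus strand), known for its role in dopaminergic neurons and induced by inflammatory signals elsewhere, was sparse. It had 15.0, 9.34, 3.70 and 5.86 CPM over the whole sections of the NV male, NV female, V male and V female, from 44 to 201 UMIs each. In the parenchyma the groups lay further apart, with NV at 13.0 ± 1.07 CPM and V at 3.89 ± 0.260 CPM (SD, n = 2 each). The V sections were nearly equal there, and the ratio of NV to V was 3.71 in males and 2.999 in females.

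Nr4a3 (chr4:48045153-48086447, plus strand), the receptor also called NOR1, had the largest ratio of the 10 genes. Its whole-section level was 23.97 and 31.05 CPM in the male and female NV mice, and 1.43 and 5.65 CPM in the male and female V mice. The V male value rests on 17 UMIs in 1565 spots. In the parenchyma the NV level was 15.98 times the V level in males and 7.49 times in females. Between NV sections the order of Nr4a3 was opposite to that of Nr4a1, since Nr4a3 was higher in the NV female and Nr4a1 in the NV male.

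Promoter sequence is shown for the 3 receptors because they share a feature with few other genes, a cluster of copies of TGACG, the core of the cAMP response element. The sequences are the reference bases just ahead of the RefSeq transcription start (GRCm38.p6), written 5′ to 3′ on the strand of the gene, with this core in capitals in either orientation. For Nr4a1 the window is chr15:101266596-101266845 on the plus strand, for Nr4a2 chr2:57124004-57124253 on the minus strand, and for Nr4a3 chr4:48045055-48045152 on the plus strand, the part of its window that lies outside annotated exons.
Nr4a1: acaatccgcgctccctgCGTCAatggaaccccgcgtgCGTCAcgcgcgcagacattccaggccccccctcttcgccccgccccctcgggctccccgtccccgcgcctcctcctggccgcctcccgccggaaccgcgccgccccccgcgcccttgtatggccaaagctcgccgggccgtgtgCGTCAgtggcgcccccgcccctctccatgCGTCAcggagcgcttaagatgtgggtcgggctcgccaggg
Nr4a2: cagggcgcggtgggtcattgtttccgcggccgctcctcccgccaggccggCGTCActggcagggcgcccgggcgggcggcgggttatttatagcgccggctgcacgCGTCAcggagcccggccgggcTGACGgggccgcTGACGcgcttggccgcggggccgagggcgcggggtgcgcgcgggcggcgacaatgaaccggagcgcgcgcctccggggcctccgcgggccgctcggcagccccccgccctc
Nr4a3: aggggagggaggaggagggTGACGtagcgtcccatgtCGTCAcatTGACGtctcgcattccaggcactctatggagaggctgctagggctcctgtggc

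Among 250-base windows ahead of 32851 RefSeq promoters, 17.8% held at least 1 TGACG core on either strand and 0.137% held 4 or more. Each of the 3 NR4A windows held 4, of which 3 lie in the stretch shown for Nr4a3. Of the 10 genes, 9 had a promoter sequence in the RefSeq table used (all but Thbs1), and all 9 held at least 1 core, with Csrnp1 represented by 4 alternative windows. Windows with a GC box (GGGCGG) held a core in 25.8% of 10756 cases, and 8 of the 9 genes had a GC box against 32.7% of all windows. The full element TGACGTCA, which contains the core, was in 0 of the 9 against 1.55% of windows. The serum response element (CArG box) and the NR4A site AAAGGTCA were each in 0 of the 9, against 1.47% and 1.34% of windows. The AP-1 site TGANTCA was in the window of Csrnp1 alone, against 6.75% of windows, and a MEF2 site was in those of Nr4a2, Atf3 and Klf2, against 2.92%. These are matches of letters in a short window and say nothing about binding.

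Among the other inducible transcription factors, Atf3 was lower in V and Csrnp1 was not. Atf3 (chr1:191170296-191218039, minus strand), a stress-induced partner of AP-1 proteins that mostly represses transcription, had 20.2, 17.0, 5.05 and 7.64 CPM in the NV male, NV female, V male and V female sections. The NV level in the parenchyma was 4.12 times the V level in males and 2.31 times in females.

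Csrnp1 (chr9:119971163-119984658, minus strand), a nuclear protein induced by AXIN1, lay above NV in the V male and below NV in the V female. With 1 mouse per sex and group, sex cannot be told apart from animal or section. Csrnp1 had 43.9 and 40.2 CPM in the male and female NV mice, and 100.7 and 12.5 CPM in the male and female V mice. The NV sections were close to each other, and the V sections lay on either side of them. In the parenchyma V was 2.03 times NV in males and 0.277 times NV in females. The NV mean of 52.0 ± 3.37 CPM and the V mean of 57.9 ± 60.5 CPM (SD, n = 2 each) differed by less than the spread of the V sections.

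The secreted proteins Thbs1 and Adamts1 were lower in both V sections than in both NV sections. Thbs1 (chr2:118111876-118127133, plus strand) encodes thrombospondin-1, a matrix glycoprotein that activates latent TGF-β and restrains vessel growth. It had 138, 142, 96.9 and 53.9 CPM in the NV male, NV female, V male and V female. Adamts1 (chr16:85793827-85803113, minus strand), a secreted protease that cleaves versican and aggrecan, had 126, 132, 59.7 and 55.6 CPM. Both NV sections and both V sections of Adamts1 lay within a few CPM of each other. Its ratio of NV to V in the parenchyma was also similar in the sexes, 2.35 in males and 2.48 in females, while that of Thbs1 was 1.72 and 2.97.

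The flow-responsive factors Klf2 and Klf4, which keep endothelium in a quiescent, anticoagulant state, overlapped between the groups over the whole section. Klf2 (chr8:72319033-72321656, plus strand) had 806, 556, 648 and 215 CPM in the NV male, NV female, V male and V female. Klf4 (chr4:55527143-55532466, minus strand) had 243, 197, 216 and 101 CPM. For both genes the V male lay between the NV sections and the V female was lowest. Restricted to the parenchyma, the groups separated. Klf2 then had 929, 732, 648 and 292 CPM, and Klf4 had 282, 267, 216 and 127 CPM. Between males the NV level was 1.43 times the V level for Klf2 and 1.30 times for Klf4, and between females 2.51 and 2.11 times.

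Apold1 (chr6:134981718-134986836, plus strand), an early-response gene of endothelial cells, was sparse, with 28 UMIs in the V male and 120 in the NV male. It had 12.8, 11.4, 2.36 and 3.21 CPM in the NV male, NV female, V male and V female. The parenchyma ratio of NV to V was 4.71 in males and 2.16 in females.

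**Figure D1:**
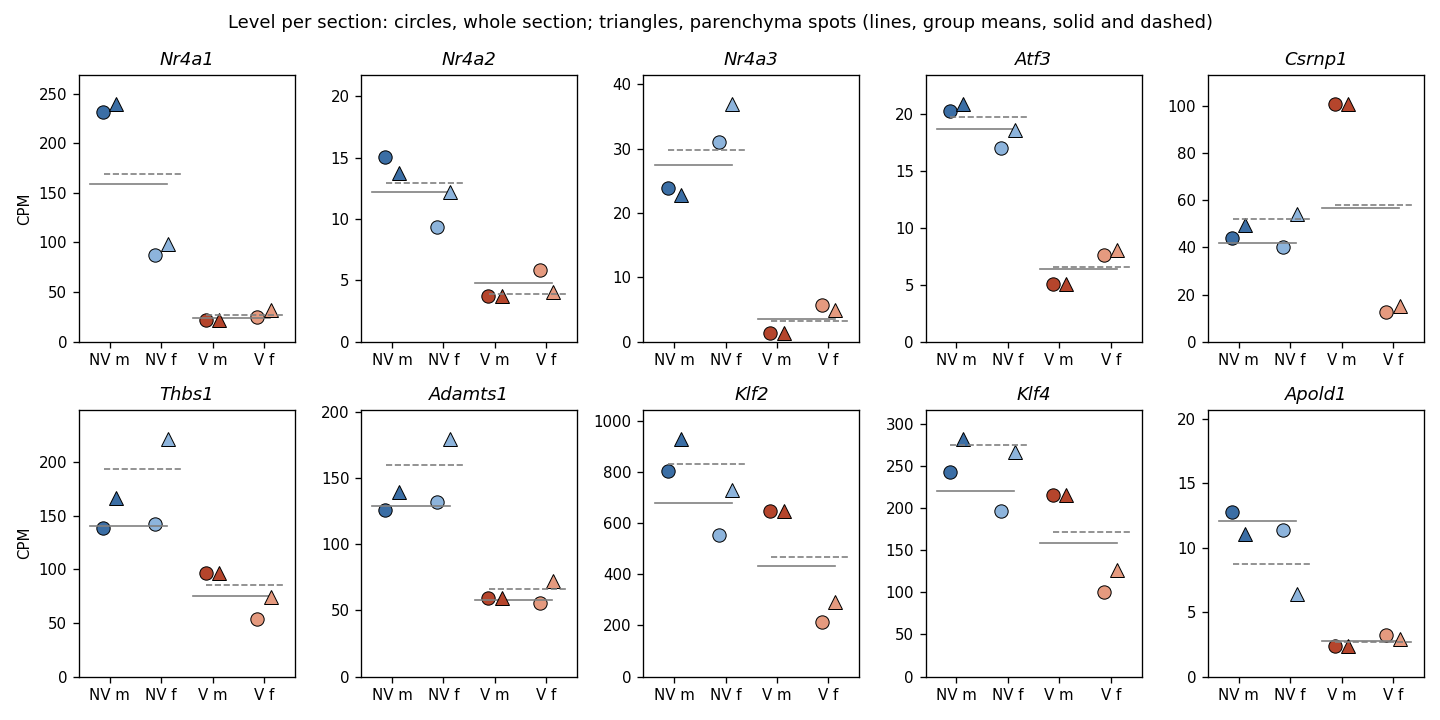
Level (CPM) of each gene in the 4 sections (NV m and NV f, male and female non-vaped; V m and V f, male and female vaped), over the whole section (circles) and over parenchyma spots (triangles), with lines for the means of 2 sections. V lies below NV without overlap for 7 of 10 genes over the whole section and 9 of 10 in the parenchyma, where Csrnp1 is the exception.

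In total, both V sections lay below both NV sections for 7 of the 10 genes over the whole section, where 14.4% of 14570 tested genes did so and 12.6% had both V sections above. In the parenchyma this held for 9 of the 10, against 17.1% of 14348 tested genes, with 14.4% in the opposite order. The genes were chosen with this comparison known, so nothing is read from those counts. Across all genes edgeR's quasi-likelihood test called 0 genes (0%) between V and NV (adjusted p under 0.05, absolute log2 fold change over 0.25), both over the whole section and in the parenchyma, and so 0 of the 10. At an unadjusted p under 0.05 by edgeR there were 248 of 14570 and 380 of 14348 genes. Both counts are below what that threshold would pass among genes without any difference. DESeq2's Wald test called 8 genes over the whole section, 7 of them lower in V (0.048%), and 10 in the parenchyma, 9 of them lower (0.0627%). In a spot, which can hold several cells, fewer cells of a type and less RNA per cell cannot be told apart.

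The number of genes called in this comparison turned on which V mouse was in the fit. Without the V female, 678 of 14831 genes (4.57%) were called lower over the whole section and 1045 of 14154 (7.38%) in the parenchyma, and 133 and 438 higher. Without the V male, 0 of 15083 genes (0%) were called lower and 21 higher over the whole section, and 86 of 14373 (0.598%) lower and 205 higher in the parenchyma. The 10 genes are not counted in these fits, since they were chosen with this comparison known. In those fits the remaining V mouse was assumed to vary like the NV mice. Leaving out either NV mouse gave 0 calls. The smallest two-sided p of an exact permutation test on 2 against 2 sections is 0.333.

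**Figure D2:**
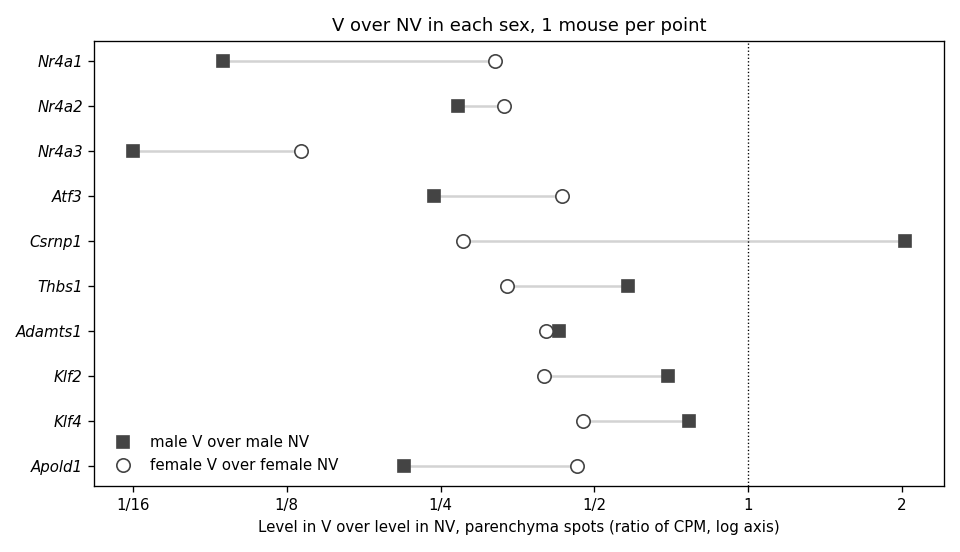
Level in V over level in NV in parenchyma spots, for the males (squares) and the females (circles), on a log axis with 1 mouse of each group behind a point. Nr4a1, Nr4a3, Atf3, Nr4a2 and Apold1 lie further below 1 in males, Thbs1, Adamts1, Klf2 and Klf4 further below 1 in females, and Csrnp1 lies above 1 in males and below it in females.

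The sexes differed in which genes had the larger ratio. The ratio of NV to V was larger between the males for the 3 receptors, Atf3 and Apold1, and larger between the females for Thbs1, Adamts1, Klf2 and Klf4. Each sex has 1 mouse per group, so this order has no replicate behind it and was not tested. Levels of endothelial markers (Pecam1, Cdh5, Cldn5, Tie1, Egfl7 and Ramp2, summed) in the parenchyma were 2696 and 2805 CPM in the male and female NV mice, and 3589 and 2751 CPM in the male and female V mice, and all 6 were detected in every section. The V male was highest and the V female lay between the NV sections. In the V female, aerocyte markers (414 CPM) and large vessel markers (328 CPM) lay below both NV sections (487 and 458 CPM, and 345 and 366 CPM). General capillary markers (802 CPM) and lymphatic markers (246 CPM) lay between the NV sections (593 and 814 CPM, and 276 and 189 CPM). The part of endothelial content in the levels of Klf2, Klf4 and Apold1 was not tested. Neutrophil markers were highest in the V male, which also had the highest Csrnp1, and their part in that value was not tested.

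How many spots held each transcript was also counted. These shares come from the same UMIs as the levels and are no further support for a difference between V and NV. Each spot was thinned to 3000 UMIs, which left 606, 309, 1363 and 1400 parenchyma spots in the NV male, NV female, V male and V female and left out 78, 39, 201 and 220. At least 1 Nr4a1 UMI was found in 46.9% of spots (exact 95% binomial interval 42.8 to 50.9) in the NV male and 25.9% (21.1 to 31.2) in the NV female. The shares were 6.16% (4.95 to 7.57) in the V male and 8.0% (6.63 to 9.55) in the V female. Intervals cover counting error only. Without thinning the NV male share was 78.7%.

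Nr4a2 was found in 4.79%, 4.85%, 0.734% and 0.786% of thinned parenchyma spots of the NV male, NV female, V male and V female. Nr4a3 was found in 5.45%, 7.12%, 0.440% and 0.714%. Both V shares lay below both NV shares for each receptor. Spots of a section are not replicates, so the intervals do not measure a difference between groups of 2 mice. Klf2 remained widespread in every section, at 91.7%, 87.4%, 85.4% and 57.8%. The V male share of Klf2 lay just below the NV female share and inside its interval (83.2 to 90.9), whereas the V female share was far lower. Csrnp1 was found in 14.7%, 15.9%, 25.02% and 4.0% of spots, again with the V sections on either side of NV.

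**Figure D3:**
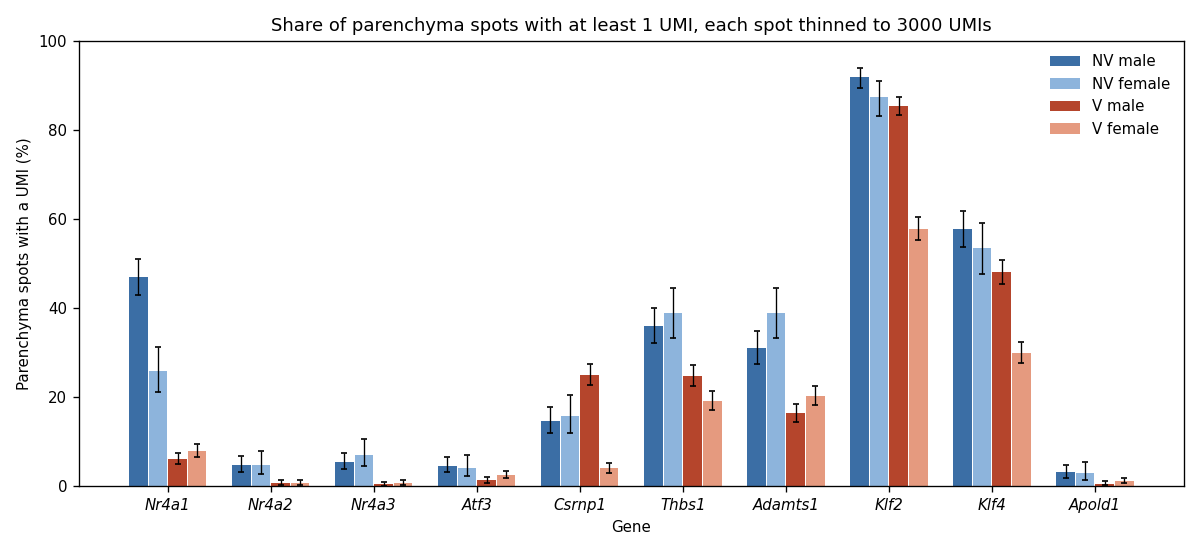
Share of parenchyma spots with at least 1 UMI of each gene after thinning every spot to 3000 UMIs, in the 4 sections (bars, with exact 95% binomial intervals). Nr4a1 is in 46.9% and 25.9% of spots in NV and in 6.16% and 8.0% in V, while Klf2 stays above 50% of spots in all 4 sections.

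A cell type known to lack these genes could not be named, so no background share can be set beside these values. As a comparison within sections, spots rich in cardiac muscle transcripts (at least 10000 CPM of 6 cardiac markers) held Nr4a1 in 50.0% of 104 thinned spots in the NV male, 26.1% of 46 in the NV female and 7.56% of 119 in the V female. These are close to the parenchyma shares of the same sections. Thbs1 was found in 10.6%, 4.35% and 10.9% of the cardiac-rich spots against 36.0%, 38.8% and 19.2% of parenchyma spots, so its share differed between tissues within each section.

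Upper airway and parenchyma were compared within both NV sections and the V female section. The rule that lists the genes does not name this contrast, but the values that chose them are not recorded and earlier results of both regions were known, so the p-values below may not be independent of the choice. The genes divided into those lower in the upper airway, Apold1, which was higher, and 4 that did not pass the test. Thbs1 was furthest below. It had 45.6, 48.3 and 29.1 CPM in the upper airway of both NV mice (male first) and the V female against 166, 222 and 74.6 in the parenchyma. By edgeR with mouse as a block its log2 fold change was -1.35 (SE 0.15, adjusted p = 8.79e-05). The upper airway was lower in 3 of 3 sections.

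Klf2 had 396, 349 and 124 CPM in the upper airway and 929, 732 and 292 CPM in the parenchyma of the same sections, a log2 fold change of -0.75 (SE 0.11, adjusted p = 5.39e-04 by edgeR). Klf4, with 114, 114 and 69.3 CPM in the upper airway, had a log2 fold change of -0.69 (SE 0.12, adjusted p = 9.76e-04 by edgeR). The ratio of upper airway to parenchyma was similar in the 3 sections for both, between 0.405 and 0.547. Adamts1 had a log2 fold change of -0.59 (SE 0.12, adjusted p = 0.00371 by edgeR) and Csrnp1 one of -0.51 (SE 0.15, adjusted p = 0.0183 by edgeR). All 5 genes were lower in 3 of 3 sections by CPM, as were Nr4a1 and Atf3, which this test did not call. CPM is scaled to total UMIs, and with that scaling 74.9% of all tested genes had a negative log2 fold change.

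Apold1 had 18.4, 17.2 and 3.52 CPM in the upper airway against 11.1, 6.37 and 2.95 CPM in the parenchyma. Its log2 fold change was 1.19 (SE 0.25, adjusted p = 0.00378 by edgeR), and it was higher in 3 of 3 sections. Nr4a1 (log2 fold change -0.05), Nr4a2 (0.77), Nr4a3 (0.44) and Atf3 (0.22) had adjusted p of 0.813, 0.076, 0.118 and 0.304 by edgeR. With no filter on low counts Nr4a2 was called higher (log2 fold change 0.72, adjusted p = 0.00982 by edgeR). For Nr4a2 and Nr4a3 the NV female lay opposite to the other sections, with upper airway over parenchyma of 0.488 and 0.655 against 1.41 and 1.21 in the NV male. Across the genome 18.8% of 13526 tested genes were called lower in the upper airway and 22.7% higher, against 5 and 1 of the 10. Calls are common in this contrast, so a call alone does not set a gene apart.

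**Figure D4:**
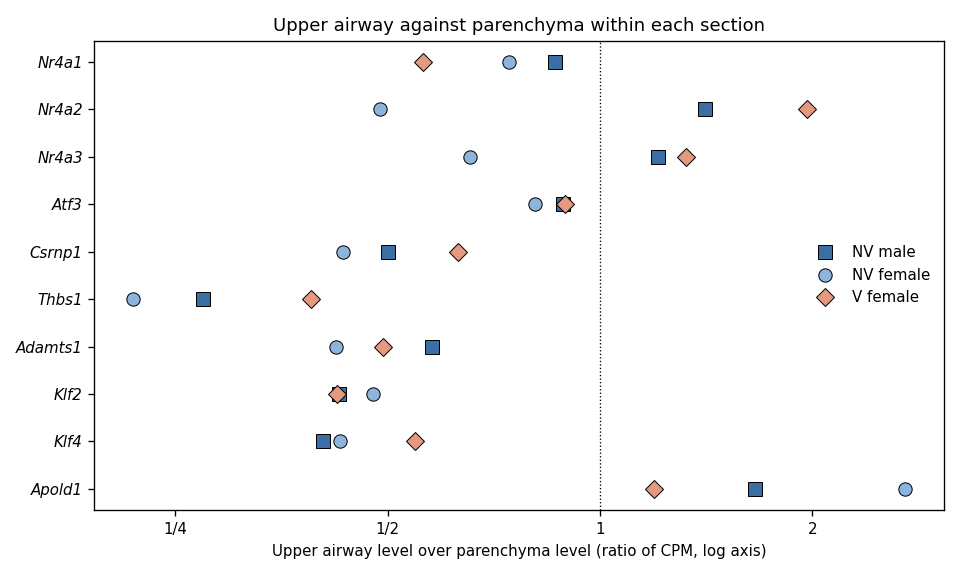
Upper airway level over parenchyma level within both NV sections and the V female section (ratio of CPM, log axis). Thbs1, Klf2, Klf4, Adamts1, Csrnp1, Nr4a1 and Atf3 lie below 1 in the 3 sections and Apold1 above 1, while Nr4a2 and Nr4a3 fall on both sides.

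The test uses TMM scaling, under which the median gene had a log2 fold change of -0.03. Scaling to total UMIs moved that median by -0.42, to -0.45, and made 78.9% of all calls lower in the upper airway in place of 45.3%. The 6 calls above held under both, and Nr4a1 was then also called lower (log2 fold change -0.48, adjusted p = 0.0117 by edgeR), a value close to the median of all genes. Atf3 changed sign, from 0.22 to -0.21. Without the NV female, Adamts1 and Csrnp1 missed the threshold (adjusted p = 0.0624 and 0.162 by edgeR) and Nr4a2 and Nr4a3 were called higher (log2 fold change 1.19 and 0.78). Without the block for mouse, Thbs1 alone was called.

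The upper airway spots also had a different cell content. Summed endothelial markers were 872, 906 and 923 CPM in the upper airway of both NV mice (male first) and the V female against 2696, 2805 and 2751 CPM in the parenchyma. Cardiac muscle markers were 18643, 12824 and 5946 CPM in the upper airway, and brown adipose markers 1383, 2316 and 3300 CPM. Low endothelial content is partly built into the split of spots, which used Calcrl and Tmem100. The part of this content in the differences of Klf2, Klf4, Thbs1 and Apold1 was not tested.

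Within the parenchyma the transcripts were tied only loosely to any cell type. For each of 20 marker lists, the level of a gene in the 10% of spots richest in that list was set against the other spots of the section. With 10 genes and 20 lists, some ratios can lie above 1 in 4 of 4 sections by chance, and none was tested. Klf2 and Klf4 were higher in endothelium-rich spots in 4 of 4 sections, with median ratios of 1.19 (1.08 to 1.30 over sections) and 1.30 (1.01 to 1.47). Klf2 was also higher in spots rich in general capillary and aerocyte markers in 4 of 4 sections (median ratios 1.07 and 1.11), and likewise in spots rich in neutrophil markers (1.07). Klf4 was higher in spots rich in large vessel and lymphatic markers in 4 of 4 sections (1.18 and 1.14). Thbs1 was higher in spots rich in smooth muscle in 4 of 4 sections, with a median ratio of 1.35 (1.14 to 1.63).

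By the same measure the receptors differed from each other. Nr4a1 was higher in 4 of 4 sections in spots rich in lymphatic markers alone, with a median ratio of 1.30 (1.24 to 1.38), while thinned spots with an Nr4a1 UMI held more lymphatic markers than spots without one in 3 of 4 sections (0.768 to 1.51). Seen the other way, thinned spots with an Nr4a1 UMI held 1.10 times the smooth muscle markers and 1.11 times the cardiac muscle markers of spots without one, above 1 in 4 of 4 sections. The level of Nr4a1 in the spots richest in smooth muscle and cardiac muscle markers did not repeat this, with median ratios of 1.03 and 0.81, above 1 in 2 and 1 of 4 sections. The ratios of Nr4a2, Nr4a3, Atf3 and Apold1 rest on few UMIs per section. Nr4a2 was above 1 in 4 of 4 sections in spots rich in neutrophil (median ratio 1.66), ciliated (1.43), alveolar type 1 (1.22) and fibroblast (1.12) markers. It was above 1 in 0 of 4 sections in spots rich in endothelial (0.78) and brown adipose (0.60) markers. Among these sparse genes the largest consistent ratio was that of Apold1 in spots rich in brown adipose markers, 1.93 (1.40 to 2.47), above 1 in 4 of 4 sections.

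**Figure D5:**
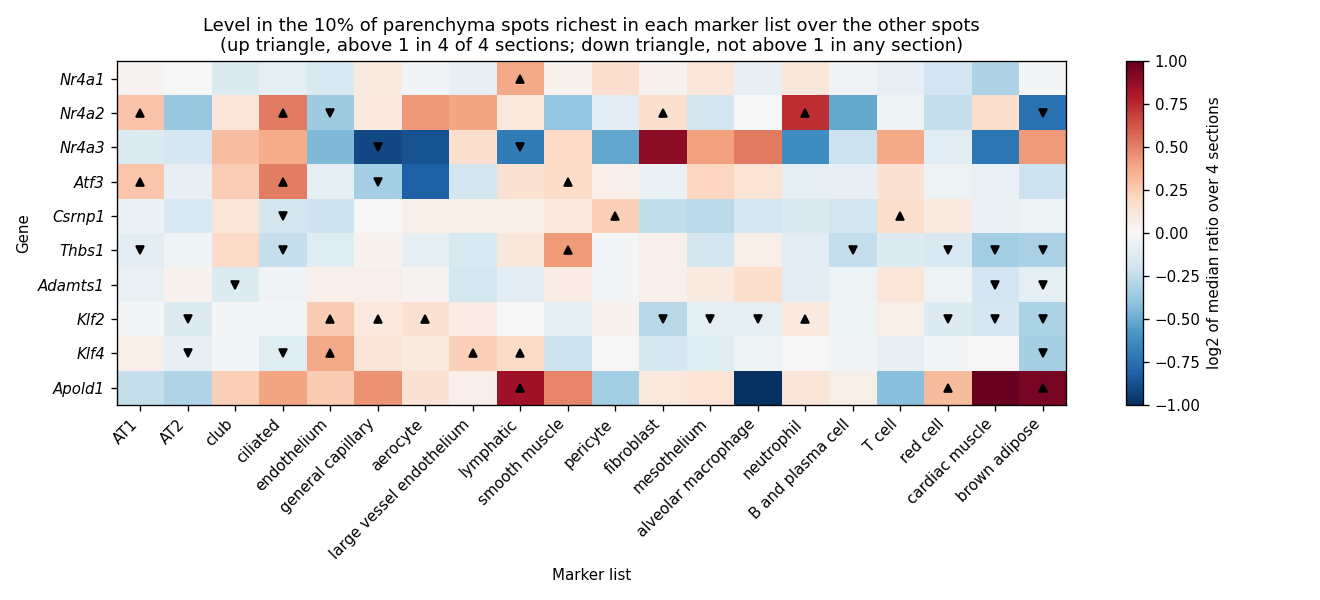
Colour gives the log2 of the median ratio, over 4 sections, of a gene's level in the 10% of parenchyma spots richest in a marker list to its level in the other spots, with triangles where the ratio was above 1 in 4 of 4 sections (up) or in none (down). Klf2 and Klf4 stand above 1 for endothelium and Thbs1 for smooth muscle, while Nr4a2, Nr4a3, Atf3 and Apold1, with few UMIs, vary widely.

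Nr4a1 was counted up to 19 times in a parenchyma spot of the NV male and up to 4 times in the V male. The richest 10% of spots held 35.4% and 40.1% of its UMIs in the male and female NV sections and 74.1% and 57.9% in the male and female V sections. The mean number of UMIs per spot was 2.52, 1.07, 0.170 and 0.364 in the same order, so the share was larger where the counts were sparser.

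The 10 genes did not share the same spots to any marked degree. Over parenchyma spots, the correlation of log-scaled counts between 2 of the genes had a median of 0.030 over 45 pairs, each taken as its median over 4 sections. The largest was that of Klf2 with Klf4, 0.137, which was 0.218 in the NV male and -0.001 in the V male. In total 12 of the 45 pairs were above 0 in 4 of 4 sections. Spots share a library and differ in depth, and with counts this sparse such weak values are no finding.

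Related gene lists were counted in the same fits. They were chosen with earlier results of these data known, so nothing is read from their counts between V and NV. Of 17 other immediate-early genes, 13 had both V sections below both NV sections in the parenchyma and 4 over the whole section, against 17.1% and 14.4% of all tested genes, and 0 were called. Their median log2 fold change between V and NV in the parenchyma was -0.57, against 0.01 over all tested genes. The largest changes were those of Egr3 (20.7, 8.23, 1.43 and 4.18 CPM in the NV male, NV female, V male and V female) and Fosb (9.84, 5.57, 1.85 and 1.93 CPM). Upper airway against parenchyma, 9 of the 17 were called lower and 1 higher, against 18.8% and 22.7% of all tested genes. Jun (-1.06) and Ier3 (-1.01) had the largest changes on the log2 scale.

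Genes that act upstream of the NR4A receptors or with them were counted against the same shares of all tested genes in the parenchyma, 17.1% with V below NV and 14.4% above. Of 10 genes of CREB, its coactivators and targets, 2 lay below NV without overlap in the parenchyma and 2 above, with a median log2 fold change of -0.17. Pde4b, a phosphodiesterase that degrades cyclic AMP and is itself a CREB target, had 96.2, 113, 65.8 and 53.1 CPM in the NV male, NV female, V male and V female, and Crem, a CREB relative, 21.6, 35.0, 15.7 and 17.6 CPM. Of 7 genes of MEF2 factors and class IIa deacetylases, 2 lay below and 1 above, and of 6 NR4A partners and corepressors, such as the retinoid X receptors, 0 and 2. None of these 23 genes was called between V and NV by edgeR in the parenchyma, as for all genes.

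Relatives of Atf3, Klf2 and Klf4 were also counted. Of 8 genes of the integrated stress response, in which ATF4 raises ATF3, 1 lay below NV and 2 above in the parenchyma, with a median log2 fold change of 0.10. Of 8 other KLF genes, 0 lay below and 2 above, with a median of 0.34. Klf15, a glucocorticoid-responsive member, had 28.4, 76.2, 114 and 46.3 CPM in the NV male, NV female, V male and V female, and Klf9 had 123, 228, 312 and 169. Both were highest in the V male and lowest in the NV male. Of 6 endothelial targets of KLF2 and KLF4, 2 lay below and 1 above, with a median of 0.13. Thbd, which encodes the anticoagulant receptor thrombomodulin, had 668, 755, 934 and 678 CPM. Vcam1, a leukocyte adhesion molecule, had 112, 94.5, 59.1 and 76.7 CPM and Edn1, the vasoconstrictor endothelin-1, had 48.7, 37.2, 29.5 and 36.6 CPM, both with the V sections below the NV sections, whereas Thbd was highest in the V male.

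In the region contrast, 5 of the 6 KLF2 and KLF4 targets were called lower in the upper airway and 1 higher, against 18.8% and 22.7% of all tested genes, with a median log2 fold change of -1.06, and Thbd had -1.28 (adjusted p = 3.27e-05 by edgeR). Summed endothelial markers were 872 to 923 CPM there against 2696 to 2805 CPM in the parenchyma, and their part in these calls was not tested. The split of spots itself used the endothelial genes Calcrl and Tmem100, so the contrast is not independent of endothelial content. Of the 8 other KLF genes 4 were called lower and 1 higher. Relatives of the secreted proteins lay on both sides. Thbs2, a thrombospondin of fibroblasts, was called higher in the upper airway with a log2 fold change of 2.36, Adamts5 with 1.63, and Thbs3 lower with -0.53. Between V and NV, 0 of the 4 tested thrombospondins and receptors and 0 of the 4 tested ADAMTS proteases and substrates separated without overlap in the parenchyma. Csrnp2, the tested paralog of Csrnp1, had 8.46 and 5.57 CPM in the parenchyma of the male and female NV mice and 5.64 and 3.96 CPM in that of the V mice, without the high value that Csrnp1 had in the V male.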

How the data were processed

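Spatial libraries of 4 lung sections (2 V and 2 NV mice) were analysed. The authors aligned the reads with Space Ranger to the 10x mouse mm10 reference and deposited tables of raw UMI counts, genes by spots under tissue, with no normalization. Their later normalization with Seurat 4.0.3 is not part of these counts. Groups followed the labels. The 10 genes and all lists were chosen with earlier results of these data known.

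All spots were used. UMIs were summed per section, or per section and region where a section had at least 50 spots in it, and entered into edgeR 4.0.16 (R 4.3.3) with TMM scaling, filterByExpr and the quasi-likelihood test. Calls needed an absolute log2 fold change over 0.25 and a p under 0.05 after Benjamini-Hochberg adjustment. Regions were compared with mouse as a block. Standard errors were the log2 fold change divided by the root of F. Sections are separate mice. For V against NV, p-values measure a difference against the spread between mice. Between regions, with the block, they measure it against how the region difference varies over the sections. Levels (CPM) were scaled to total UMIs, and shares used spots thinned to 3000 UMIs. Gene positions came from the GENCODE vM21 annotation and promoters from RefSeq.

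Named genes were the 10 genes, up to 2 genes with the largest absolute log2 fold change per related list and comparison, and the 5 genes most like Nr4a1 over spots, a result that is not reported here. Some list genes are given by counts alone. Tests were tested on simulated data, in which 200 genes had a log2 fold change of 2. At the spread of the real sums edgeR recovered 21.0% of them among 14346 genes for V against NV over the whole section, 73.0% among 14097 genes in the parenchyma and 100% among 13396 genes between regions. Alternatives were DESeq2 1.42.0, other scalings, no filter on low counts, spots with at least 500 UMIs, region thresholds of 25% and 75%, each mouse left out, blocks and other thinning.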

Additional observations from a re-analysis of the deposited data

Results flagged for a closer look

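Csrnp1 moved in opposite directions in the 2 sexes. Over the whole section its level in V was 2.29 times that in NV for males and 0.311 times for females, and in the parenchyma 2.03 times and 0.277 times. Each value compares 1 mouse with 1 mouse, so the difference between the sexes was not tested. The V male section, the higher of the V sections, held 1 upper airway spot and the highest summed level of neutrophil markers, and their part in the value was not tested. Within sections, Csrnp1 in the parenchyma spots richest in neutrophil markers had a median ratio of 0.90 to the other spots. With 2 sections per group, no section could be examined as an outlier.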

How the results depend on the processing

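Between V and NV, edgeR's 0 called genes rose with DESeq2's Wald test to 8 over the whole section and 10 in the parenchyma, and without a filter on low counts to 5 in the parenchyma. Leaving out each mouse gave 0 to 811 genes over the whole section and 0 to 1483 in the parenchyma, the highest without the V female (female is replicate 2 of each group). Other scalings, spots with at least 500 UMIs and other region thresholds left 0. The replicate number in the titles is shared by sex and not by animal, and the deviations of same-numbered sections had a correlation of 0.38 over genes of the whole section and 0.08 in the parenchyma. With the replicate block 0 genes were called in either, and the log2 fold change of Csrnp1 turned from 0.31 to -0.25 over the whole section and from 0.14 to -0.37 in the parenchyma. With each mouse left out it ranged from -1.68 without the V male to 1.12 without the V female, and from -1.75 to 0.95 in the parenchyma. The other 9 genes kept a negative log2 fold change in every alternative run between V and NV. These runs reuse the same sections and the genes were chosen with this comparison known, so nothing is read from that sign. Between regions 5612 genes were called, 8839 with total UMIs alone and 3921 to 6769 in the other alternatives. There Atf3 turned from 0.22 to -0.21 with total UMIs alone, and Nr4a1 from -0.05 to 0.11 without the mouse block and to 0.15 without the V female. A region threshold of 25% ended the calls of Csrnp1 and Apold1 (adjusted p = 0.198 and 0.128), and DESeq2 that of Csrnp1 (0.0895). The cause was not tested for any of these. Depth limited Nr4a2, Nr4a3, Atf3 and Apold1, which had 17 to 262 UMIs per section.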
